A study of Mus musculus with 6 samples.

Results

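The glycolysis and hypoxia genes described here are 34 of the 26153 genes or names tested, read by 54 of the 39429 gene probes on the arrays. They were taken by name from the scanner files. They comprise 15 enzymes that turn glucose into pyruvate, 6 genes for lactate, sugar transport and the gate into the mitochondrion, 9 targets of the hypoxia-inducible factors, 2 subunits of those factors, and 2 muscle isoforms of glycolytic enzymes, Eno3 and Pgam2, which were kept apart. Pkm2 is the files' name for the gene now called Pkm. All 54 probes passed the filter on dim spots, and on each array both channels of all 34 genes were well above background.

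The RNA came from retinas of male C57BL/6 mice, 8 weeks old when the right eye was injected in its vitreous body, the gel behind the lens. The control group received phosphate-buffered saline (PBS), and the other groups received titanium dioxide nanoparticles at a dose named PTC, which the labels do not spell out, or at 10 times that dose, named 10PTC. Retinas were taken 7 days later from 12 mice per group, and 4 were pooled per tube, so that a value belongs to a pool and not to an animal. On each of the 6 arrays, 3 per dose, RNA of a nanoparticle pool was labelled with Cy5 and PBS RNA with Cy3. All values below are log2 ratios of Cy5 over Cy3, so that a negative value means less signal after nanoparticles than after PBS. The dyes were never swapped and no PBS pool was hybridised as a sample, so a dye effect and the spread of the controls cannot be told apart from the treatment where a dose is set against PBS. The first 2 PTC replicates shared slide 1, while PTC replicate 3 shared slide 2 with the 3 10PTC arrays, so dose and slide overlap.

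Glycolysis splits glucose into pyruvate in the cytosol and yields ATP without oxygen. Photoreceptors are known for turning much of their glucose into lactate even where oxygen is plentiful, and Müller glia and neurons of the retina exchange lactate through monocarboxylate transporters. When oxygen is short, the alpha subunits of the hypoxia-inducible factors (HIF) escape prolyl hydroxylation and degradation, and the factors raise many glycolytic enzymes together with genes such as Bnip3, Car9 and Adm.

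PTC was compared with PBS to see how these genes stood after the lower dose. Of the 32 genes other than the muscle isoforms, 13 fell and 2 rose (limma, adjusted p under 0.05 over all genes), and their median log2 ratio was -0.15. The background was high, since 33.1% of all genes tested passed, 16.8% higher and 16.3% lower, with a median near 0 on every array. The genes that fell were the enzyme genes Hk2, Gpi1, Pfkl, Pfkm, Tpi1, Eno2 and Pkm2, the lactate and transport genes Ldhb, Slc16a3 and Slc2a3, and the HIF targets Bnip3, P4ha1 and Ankrd37. The genes that rose were Adm and Hif1a, and neither was called with the slide as a block, in the processed signals of the scanner software or in the authors' deposited table. Without PTC replicate 3 only 11 of the 34 genes, muscle isoforms included, passed, against 17 with it. The median of the 32 genes was -0.078 without PTC replicate 1.

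At 10PTC, 5 of the 32 genes fell and 3 rose against PBS, with a median of 0.04. Of all genes tested 27.7% passed, 14.4% higher and 13.3% lower. The 5 that fell, Pfkm, Ldhb, Slc16a3, Bnip3 and Ankrd37, had also fallen at PTC. The 3 that rose, Hk1, Aldoa and Eno1, are enzyme genes and had not passed at PTC. Without 10PTC replicate 1 the number of the 34 genes that passed dropped from 10 to 6, and without 10PTC replicate 3 to 5. With the slide as a block it was 4, namely Eno1, Slc16a3, Eno3 and Pgam2, so the other calls at 10PTC ended there. The median of the 32 genes was 0.006 without 10PTC replicate 1 and 0.11 without 10PTC replicate 2. Both doses are set against the same kind of PBS RNA, so their values are given side by side and are not independent of each other. In RNA of whole retinas, fewer cells of a type and less RNA per cell cannot be told apart.

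The direction of these ratios depended on how the arrays were normalized. The enzymes are among the brightest spots: their mean brightness had a median of 15.9 on the log2 scale, and 99.1% of all genes were dimmer than that. Loess, used for the values given here, removes any trend of the ratio with brightness. Median centring, which shifts each array by 1 number and leaves such a trend in place, gave the 32 genes a median of 0.09 at PTC in place of -0.15, with 11 called higher and 4 lower, and 0.31 at 10PTC in place of 0.04, with 18 called higher and 1 lower. Of the 13 genes that fell at PTC, Pfkl, Pfkm, Tpi1 and Slc16a3 were also called lower after median centring, and of the 5 that fell at 10PTC, Slc16a3 was. The median of all genes shifted by less, to between 0.05 and 0.09 on the 6 arrays. Which of these normalizations is nearer to the RNA levels was not tested.

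**Figure D1:**
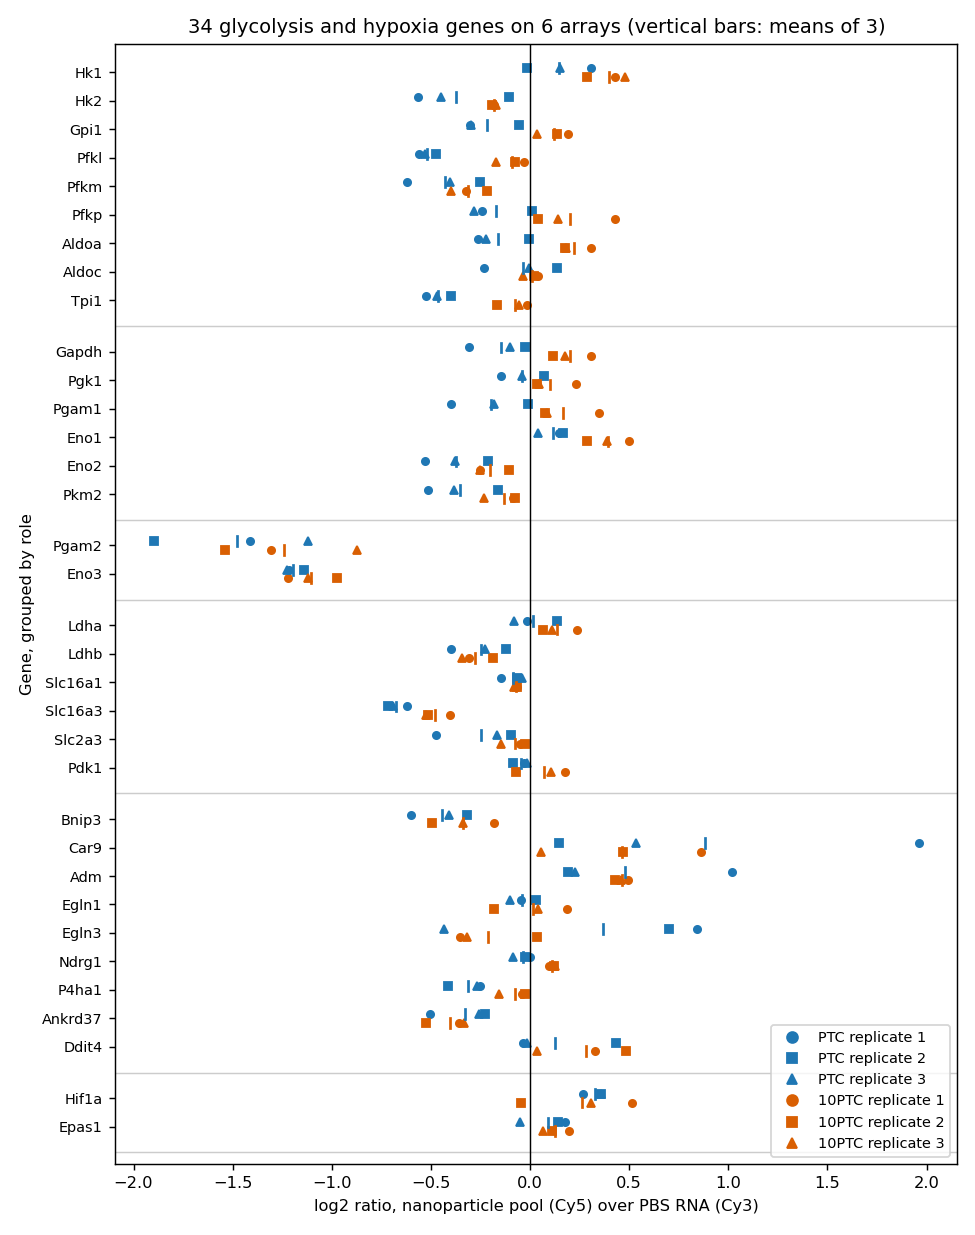
Log2 ratio of each of the 34 genes on the 6 arrays (horizontal axis, nanoparticle pool over PBS RNA) by gene (vertical axis, in blocks by role), with a vertical bar at the mean of the 3 arrays of a dose. Pgam2 and Eno3 lie below -0.8 on every array, Slc16a3 lies between -0.72 and -0.40, and Car9 has 1 array, PTC replicate 1, at 1.96.

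The upper steps of glycolysis, from the phosphorylation of glucose to the triose phosphates, were read by 9 genes. At PTC 5 of them fell and none rose, with a median of -0.22, and at 10PTC 1 fell and 2 rose, with a median of 0.01. That is 55.6% lower at PTC and, at 10PTC, 11.1% lower and 22.2% higher, beside 16.3%, 13.3% and 14.4% of all genes. The hexokinases trap glucose in the cell. Hk2 lay at -0.57, -0.10 and -0.45 on the PTC arrays and at -0.18, -0.19 and -0.17 on the 10PTC arrays. All 6 values were below 0, and the groups overlapped because PTC replicate 2 was near 0. Hk2 fell at PTC (-0.37 ± 0.24, SD, n = 3; limma adjusted p = 0.0131), a call that ended without PTC replicate 3 (-0.34), and was -0.18 ± 0.01 at 10PTC (adjusted p = 0.133), or 0.08 after median centring. Hk1, the main hexokinase of neurons, lay at 0.31, -0.02 and 0.15 on the PTC arrays and at 0.43, 0.29 and 0.48 on the 10PTC arrays. It was 0.15 ± 0.16 at PTC (limma adjusted p = 0.137) and rose by 0.40 ± 0.10 at 10PTC (adjusted p = 0.00783), a call that ended without 10PTC replicate 1 (0.38) or 10PTC replicate 3 (0.36). A dimmer Hk1 probe gave 0.13 at PTC and 0.20 at 10PTC and was called at neither. Without PTC replicate 2, Hk1 was also called at PTC (0.23) and Hk2 also at 10PTC (-0.18).

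Phosphofructokinase makes the committed step, and its 3 genes gave 3 patterns. Pfkl, the liver-type subunit, lay at -0.56, -0.47 and -0.53 on the PTC arrays and at -0.03, -0.08 and -0.17 on the 10PTC arrays. The groups did not overlap, and the PTC values were close to each other. Pfkl was 30.3% lower than PBS at PTC (-0.52 ± 0.04, SD, n = 3; limma adjusted p = 0.000852) and -0.09 ± 0.07 at 10PTC (adjusted p = 0.167), which became 0.15 after median centring. Its probe lies on chromosome 10 at 77450926 to 77450985 (mm9). Pfkm, the muscle-type subunit that other tissues also make, lay at -0.62, -0.25 and -0.41 on the PTC arrays and at -0.32, -0.22 and -0.40 on the 10PTC arrays. Its doses overlapped and all 6 values were below 0. Pfkm fell at PTC (-0.43 ± 0.18, SD, n = 3; limma adjusted p = 0.00561) and at 10PTC (-0.31 ± 0.09, adjusted p = 0.0192), the second a call that ended without 10PTC replicate 1 (-0.31) or 10PTC replicate 3 (-0.27). Pfkp, the platelet-type subunit, passed at neither dose on its brighter probe (-0.17 and 0.20), while its other probe was called lower at both doses, at -0.47 and -0.37. Which Pfkp transcript each probe reads was not analysed here.

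Gpi1, which turns glucose phosphate into fructose phosphate, lay at -0.30, -0.06 and -0.30 on the PTC arrays and at 0.19, 0.14 and 0.03 on the 10PTC arrays. Every PTC value was below 0 and every 10PTC value above it. Gpi1 fell at PTC (-0.22 ± 0.14, SD, n = 3; limma adjusted p = 0.0312) after loess but was 0.08 after median centring, and it was 0.12 ± 0.08 at 10PTC (adjusted p = 0.179). The call at PTC ended without PTC replicate 1 or 3 (-0.18 each) and, with the value unmoved, without 10PTC replicate 2. Its 3 probes lie within a few bases of each other and gave -0.24 to -0.19 at PTC and 0.11 to 0.16 at 10PTC.

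Aldolase splits the sugar into the triose phosphates. Aldoa lay at -0.26, 0.00 and -0.22 on the PTC arrays and at 0.31, 0.17 and 0.18 on the 10PTC arrays, so that the groups did not overlap. It was -0.16 ± 0.14 at PTC (limma adjusted p = 0.0758), or 0.20 after median centring, and rose at 10PTC (0.22 ± 0.07, adjusted p = 0.0334). That call ended without PTC replicate 3 (0.22), 10PTC replicate 1 (0.18), 10PTC replicate 2 (0.24) or 10PTC replicate 3 (0.24), and Aldoa was 0.03 in the scanner software's processed signals. At PTC Aldoa was called lower without PTC replicate 2 (-0.24). Aldoc, the brain aldolase, was -0.03 ± 0.19 at PTC and 0.01 ± 0.04 at 10PTC (adjusted p = 0.735 and 0.940), with 95% intervals from -0.19 to 0.13 and from -0.15 to 0.17. After median centring Aldoc was 0.28 at PTC.

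Tpi1, which interconverts the triose phosphates, lay at -0.52, -0.40 and -0.47 on the PTC arrays and at -0.01, -0.17 and -0.05 on the 10PTC arrays. As for Pfkl, the 3 PTC values were lower than every 10PTC value and close to each other. Tpi1 was 27.5% lower than PBS at PTC (-0.46 ± 0.06, SD, n = 3; limma adjusted p = 0.00130) and -0.08 ± 0.08 at 10PTC (adjusted p = 0.262), or 0.28 at 10PTC after median centring. Its probe lies on chromosome 6 at 124760947 to 124761006 (mm9), and a dimmer probe of the gene gave -0.07 at PTC and 0.10 at 10PTC, neither called.

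The lower steps, from glyceraldehyde phosphate to pyruvate, were read by 6 genes. At PTC 2 of them fell and none rose, with a median of -0.17, and at 10PTC the median was 0.14, with 1 gene higher and none lower past the threshold. That is 33.3% lower at PTC and 16.7% higher at 10PTC, beside 16.3% and 14.4% of all genes. Gapdh, often used as a reference gene, lay at -0.31, -0.02 and -0.10 on the PTC arrays and at 0.31, 0.12 and 0.18 on the 10PTC arrays. All PTC values were below all 10PTC values. Gapdh passed at neither dose (-0.14 ± 0.15, limma adjusted p = 0.128, and 0.20 ± 0.10, adjusted p = 0.0573), and it was 0.21 at PTC after median centring. The 10PTC value passed without PTC replicate 1 or PTC replicate 2, neither of which moved it. Its 7 probes spanned -0.18 to 0.14 at PTC and 0.04 to 0.31 at 10PTC, with 1 called lower at PTC and another called higher at 10PTC. In the coordinates of the design, the latter lies on chromosome 8 and the others on chromosome 6. Pgk1 and Pgam1, the next enzymes, passed at neither dose. Pgk1 was -0.04 ± 0.11 and 0.10 ± 0.11, with 0.22 at PTC after median centring. Pgam1 was -0.20 ± 0.20 and 0.17 ± 0.16, with 0.10 at PTC after median centring.

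The enolases make phosphoenolpyruvate. Eno1, the isoform found in most cells, lay at 0.14, 0.17 and 0.04 on the PTC arrays and at 0.50, 0.29 and 0.39 on the 10PTC arrays. All 6 values were above 0, and the 10PTC values were the higher ones. Eno1 was 0.12 ± 0.07 at PTC (limma adjusted p = 0.132) and rose at 10PTC to 31.2% above PBS (0.39 ± 0.11, SD, n = 3; adjusted p = 0.00380). The rise at 10PTC passed in all 22 alternative analyses of that comparison. Its probe lies on chromosome 4 at 149622928 to 149622987 (mm9). Eno2, the neuronal isoform, lay at -0.53, -0.21 and -0.38 on the PTC arrays and at -0.25, -0.10 and -0.25 on the 10PTC arrays. It fell at PTC (-0.38 ± 0.16, SD, n = 3; limma adjusted p = 0.00627), was -0.20 ± 0.09 at 10PTC (adjusted p = 0.0563), and after median centring was called at neither dose (-0.15 and 0.10). Eno2 at 10PTC passed without PTC replicate 1 or PTC replicate 2. Pkm2, pyruvate kinase, which makes the last step, lay at -0.52, -0.16 and -0.38 on the PTC arrays and at -0.09, -0.08 and -0.23 on the 10PTC arrays. It fell at PTC (-0.35 ± 0.18, SD, n = 3; limma adjusted p = 0.00976), a call that ended without PTC replicate 3 (-0.34) and after median centring (-0.07), and was -0.13 ± 0.09 at 10PTC (adjusted p = 0.198), or 0.23 after median centring.

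Pyruvate and lactate handling was read by 6 genes, of which 3 fell at PTC and 2 at 10PTC, and none rose. Of all genes, 16.3% fell and 16.8% rose at PTC, and 13.3% fell and 14.4% rose at 10PTC. Slc16a3, a HIF target, encodes MCT4, the monocarboxylate transporter that exports lactate from glycolytic cells. Slc16a3 lay at -0.62, -0.72 and -0.69 on the PTC arrays and at -0.41, -0.51 and -0.53 on the 10PTC arrays. All 6 values were well below 0, and the PTC values were lower than all 10PTC values. It was 37.4% lower than PBS at PTC (-0.68 ± 0.05, SD, n = 3; limma adjusted p = 0.000440) and 28.4% lower at 10PTC (-0.48 ± 0.07, adjusted p = 0.00136). The fall passed in 22 of 23 alternatives at PTC, all but the 2 arrays of slide 1 taken alone (-0.67), and in 22 of 22 at 10PTC. A second probe, which overlaps the first on chromosome 11 (120820023 to 120820082 in mm9), gave -0.66 and -0.44. Slc16a1, which encodes MCT1, lay between -0.15 and -0.04 on the 6 arrays and passed at neither dose (-0.08 ± 0.06 and -0.07 ± 0.01). It was dim, with a mean brightness of 8.2 on the log2 scale, against 12.8 for Slc16a3.

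Ldha, the lactate dehydrogenase subunit that favours lactate formation, lay at -0.01, 0.13 and -0.08 on the PTC arrays and at 0.24, 0.07 and 0.11 on the 10PTC arrays. It passed at neither dose (0.01 ± 0.11, limma adjusted p = 0.874, and 0.14 ± 0.09, adjusted p = 0.107), with 95% intervals from -0.12 to 0.15 and from 0.01 to 0.27. Its 3 probes differed in sign at both doses, from -0.13 to 0.18 at PTC and from -0.10 to 0.24 at 10PTC, and none was called. After median centring Ldha was called higher at both doses (0.34 and 0.55). Ldhb, the subunit that favours lactate use, was -0.40, -0.12 and -0.23 on the PTC arrays and -0.31, -0.19 and -0.34 on the 10PTC arrays. It fell at PTC (-0.25 ± 0.14, SD, n = 3; limma adjusted p = 0.0207) and at 10PTC (-0.28 ± 0.08, adjusted p = 0.0171), and after median centring it was -0.03 and 0.01. The call at PTC ended without PTC replicate 1 (-0.17) or PTC replicate 3 (-0.26), and the call at 10PTC without 10PTC replicate 1 (-0.26) or 10PTC replicate 3 (-0.25).

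Slc2a3, the neuronal glucose transporter GLUT3, fell at PTC (-0.25 ± 0.20, SD, n = 3; limma adjusted p = 0.0386). PTC replicate 1 at -0.47 stood below the other arrays at -0.10 and -0.17. The call ended without PTC replicate 1 (-0.13) or PTC replicate 3 (-0.29), and also, with the value unmoved, without any 1 of the 10PTC arrays. Slc2a3 was -0.07 ± 0.06 at 10PTC (adjusted p = 0.479). Pdk1, the kinase that closes pyruvate dehydrogenase and a HIF target, was -0.04 ± 0.04 and 0.07 ± 0.13 and passed at neither dose.

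The promoters of Slc16a3 and Ldha show 2 genes that carry the core letters of the hypoxia response element, ACGTG, of which, after loess, Slc16a3 was lower at both doses and Ldha was called at neither. The pair was chosen after their values were seen. Each sequence is the 250 bases before the transcription start in RefSeq's GRCm38.p6 table, 5′ to 3′ on the strand of the gene, with ACGTG on either strand (CACGT on the opposite one) in capitals. The Slc16a3 window is chr11:120948817-120949066 on the plus strand, with matches that begin at -27 and -14 from the start. The Ldha window is chr7:46845554-46845803 on the plus strand, the one of its 2 start sites with more matches, here 5, 4 of them in CACGTG palindromes that read the same on both strands and count as 2 overlapping matches each.
Slc16a3: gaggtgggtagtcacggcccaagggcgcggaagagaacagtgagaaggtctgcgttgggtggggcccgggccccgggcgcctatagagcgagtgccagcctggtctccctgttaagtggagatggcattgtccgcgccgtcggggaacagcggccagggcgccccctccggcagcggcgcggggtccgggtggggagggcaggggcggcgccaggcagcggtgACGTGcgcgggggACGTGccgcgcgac
Ldha: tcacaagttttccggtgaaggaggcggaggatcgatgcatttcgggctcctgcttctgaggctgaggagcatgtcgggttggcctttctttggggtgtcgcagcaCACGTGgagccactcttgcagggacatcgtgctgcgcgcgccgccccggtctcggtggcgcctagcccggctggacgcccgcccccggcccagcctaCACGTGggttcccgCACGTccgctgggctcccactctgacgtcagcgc

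The HIF targets went in both directions. Of 9 such genes, 3 fell and 1 rose at PTC, with a median of -0.04, and at 10PTC the median was 0.02, with 2 genes lower and none higher past the threshold. The shares were 33.3% lower and 11.1% higher at PTC, against 16.3% and 16.8% of all genes. At 10PTC they were 22.2% and 0.0%, against 13.3% and 14.4%. Bnip3, a mitochondrial protein of mitophagy and cell death, lay at -0.60, -0.32 and -0.41 on the PTC arrays and at -0.18, -0.50 and -0.34 on the 10PTC arrays. All 6 values were below 0 and the doses overlapped. Bnip3 fell at PTC (-0.44 ± 0.14, SD, n = 3; limma adjusted p = 0.00527) and at 10PTC (-0.34 ± 0.16, adjusted p = 0.0162), and was not called after median centring at either dose (-0.23 and -0.05). The call at 10PTC ended without 10PTC replicate 2 (-0.26) or 10PTC replicate 3 (-0.34). Of its 3 probes, 2 were called lower at PTC and 1 at 10PTC, with values from -0.44 to -0.06 and from -0.34 to -0.01.

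Ankrd37, an ankyrin repeat protein gene and HIF target, lay at -0.51, -0.23 and -0.26 on the PTC arrays and at -0.36, -0.53 and -0.33 on the 10PTC arrays. It fell at both doses (-0.33 ± 0.15, limma adjusted p = 0.0105, and -0.41 ± 0.11, adjusted p = 0.00694), and leaving out any 1 array ended neither call. After median centring it was -0.17 and -0.18, called at neither dose. P4ha1, a prolyl hydroxylase that matures collagen, lay at -0.25, -0.42 and -0.27 on the PTC arrays and at -0.04, -0.03 and -0.16 on the 10PTC arrays, with no overlap. P4ha1 fell at PTC (-0.31 ± 0.09, SD, n = 3; limma adjusted p = 0.00498) and was -0.07 ± 0.07 at 10PTC (adjusted p = 0.310). After median centring P4ha1 was -0.14 at PTC and not called.

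Bnip3 and Ankrd37 also hold the ACGTG letters, and their windows are shown because both fell at both doses, again a choice made after their values were seen. Source, build and capitals are as for Slc16a3. The Bnip3 window is chr7:138909507-138909756 on the minus strand, with 1 CACGTG palindrome, and the Ankrd37 window is chr8:45999851-46000100 on the minus strand, with matches that begin at -241 and -6.
Bnip3: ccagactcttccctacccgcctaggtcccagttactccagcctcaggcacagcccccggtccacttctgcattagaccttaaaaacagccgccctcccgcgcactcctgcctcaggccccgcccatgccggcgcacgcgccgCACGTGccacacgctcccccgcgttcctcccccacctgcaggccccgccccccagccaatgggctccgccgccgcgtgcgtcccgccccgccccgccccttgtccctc
Ankrd37: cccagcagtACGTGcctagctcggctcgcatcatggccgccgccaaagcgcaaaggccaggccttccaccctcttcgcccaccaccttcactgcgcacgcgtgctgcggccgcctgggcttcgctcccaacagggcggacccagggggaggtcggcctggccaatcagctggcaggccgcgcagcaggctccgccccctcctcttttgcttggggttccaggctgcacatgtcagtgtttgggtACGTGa

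Of the 34 genes, 31 had a promoter in the RefSeq table, and Epas1, Ndrg1 and Slc2a3 did not. ACGTG was found on either strand of at least 1 of a gene's windows, here from 250 bases before to 50 after the start, for 20 of the 31 genes (64.5%), against 21.8% of 27025 genes in the table. GCGTG was found for 19 (61.3%), against 35.2%. The 2 motifs do not contain each other. The members' windows were richer in G and C, with a median of 61.3% against 52.7% for all windows. No test was made of these shares, and their relation to base composition was not tested. Called and uncalled genes were found on both sides. The called genes Slc16a3, Bnip3, Ankrd37, Hk2, Pfkm, Pkm2 and P4ha1, which fell, held ACGTG. Hk1, Aldoa and Hif1a, which rose, held it too. So did the uncalled Ldha, Pgk1, Pgam1, Gapdh, Aldoc, Slc16a1, Car9, Ddit4, Egln1 and Egln3. The called genes Pfkl, Tpi1, Gpi1, Eno1, Eno2, Ldhb, Adm, Eno3 and Pgam2 did not in these windows, nor did the uncalled Pfkp and Pdk1.

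Other HIF targets had positive means. Adm, the vasodilator peptide adrenomedullin, lay at 1.02, 0.19 and 0.23 on the PTC arrays and at 0.50, 0.43 and 0.46 on the 10PTC arrays. PTC replicate 1 was far above the others, and all 6 values were above 0. Adm was dim, with a mean brightness of 7.0 on the log2 scale, where all genes had a lowest value of 6.0 and a median of 8.7. Car9 (8.0), Egln1 (7.6) and Egln3 (7.5) were also below that median, as were Slc16a1 (8.2) and Pdk1 (8.6). Adm rose at PTC (0.48 ± 0.47, SD, n = 3; limma adjusted p = 0.0407) and was 0.46 ± 0.03 at 10PTC (adjusted p = 0.0517). Without PTC replicate 1 the value at PTC was 0.21. The call at PTC ended without PTC replicate 3 (0.61) or without any 1 of the 10PTC arrays, and the 10PTC value passed without PTC replicate 1 or PTC replicate 2, neither of which moved it. Car9, a carbonic anhydrase of the cell surface, lay at 1.96, 0.15 and 0.53 on the PTC arrays and at 0.86, 0.47 and 0.06 on the 10PTC arrays. The mean at PTC was 0.88 ± 0.96 (SD, n = 3) and rested on replicate 1, whose value was several times the others, and it passed at neither dose (adjusted p = 0.0669 and 0.301). Car9 at PTC was called without PTC replicate 2 (1.248), and at 10PTC without PTC replicate 1 (0.46).

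Egln3, the HIF prolyl hydroxylase that HIF itself induces, split the PTC arrays, with 0.84 and 0.70 on slide 1 and -0.43 on slide 2. The 10PTC arrays, all on slide 2, were at -0.35, 0.04 and -0.32. Egln3 therefore passed at neither dose (0.37 ± 0.70, limma adjusted p = 0.236, and -0.21 ± 0.22, adjusted p = 0.506), but at PTC it was called without PTC replicate 3 (0.77), and slide and pool cannot be told apart for it. Egln1, the main HIF prolyl hydroxylase, was -0.04 ± 0.07 and 0.02 ± 0.19. Ndrg1, a stress-induced gene of the N-myc downstream family, was -0.04 ± 0.05 and 0.11 ± 0.02, and 0.17 at PTC after median centring. Ddit4, an inhibitor of mTORC1 also called REDD1, was 0.13 ± 0.27 and 0.28 ± 0.23, and its 10PTC value passed without PTC replicate 2. None of these 3 passed at either dose.

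Of the HIF subunits, Hif1a lay at 0.27, 0.36 and 0.36 on the PTC arrays and at 0.52, -0.04 and 0.31 on the 10PTC arrays. The PTC values were close to each other, and 10PTC replicate 2 stood below the rest. Hif1a rose at PTC to 25.5% above PBS (0.33 ± 0.05, SD, n = 3; limma adjusted p = 0.0336) and was 0.26 ± 0.28 at 10PTC (adjusted p = 0.0776), or 0.41 and called without 10PTC replicate 2. The call at PTC ended without PTC replicate 1 (0.36), PTC replicate 2 (0.31), PTC replicate 3 (0.31) or 10PTC replicate 3 (0.33). Hif1a was 0.49 and called at each dose after median centring. Its mRNA is no measure of HIF activity, which depends on the protein. Epas1, which encodes HIF-2 alpha, was 0.09 ± 0.12 and 0.12 ± 0.07 and passed at neither dose, with 1 of its 3 probes called higher at PTC.

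The doses were compared directly to see whether these genes stood differently after 10 times the amount of nanoparticles. The mean ratio was higher at 10PTC than at PTC for 15 of 15 enzymes and for 26 of the 32 genes, with a median difference of 0.15. Of all genes tested it was higher for 13314 of 26153, with a median difference of 0.003. Of 24 other glycolysis genes it was higher for 10 and lower for 14 (median -0.01). It was higher for 8 of 13 genes of pyruvate entry to the mitochondrion (0.03) and 19 of 37 other hypoxia genes (0.006). It was also higher for 18 of 18 skeletal muscle genes (median 0.47) and 10 of 12 bipolar and amacrine genes (0.11). Of the microglia and macrophage genes it was higher for 0 of 12 (-0.22). None of the 34 genes passed in limma (smallest adjusted p = 0.433, for Pfkl), nor did any of the 26153 genes tested (0.0%). At an unadjusted p under 0.05 it was 12 of the 34 genes, all higher at 10PTC, and 2133 of all genes, 1200 higher and 933 lower. With array quality weights 5 enzyme genes passed, Gpi1, Pfkl, Aldoa, Tpi1 and Eno1, with differences from 0.34 to 0.41, among 361 genes in all.

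The 3 10PTC arrays lay above all 3 PTC arrays for 11 of the 32 genes, against 8.85% of all genes, and below them for none, against 6.56%. They were the enzyme genes Pfkl, Tpi1, Aldoa, Pfkp, Pgam1, Gapdh, Gpi1 and Eno1, together with Slc16a3, P4ha1 and Ndrg1. The difference was 0.43 for Pfkl (95% interval 0.28 to 0.58), 0.39 for Tpi1 (0.23 to 0.55) and 0.38 for Aldoa (0.18 to 0.58). For Gpi1, Aldoa, Gapdh and Pgam1 every PTC value was below 0 and every 10PTC value above it, as for 1.19% of all genes, though not after median centring. PTC replicate 2 was close to 0 for Aldoa (-0.004), Pgam1 (-0.008) and Gapdh (-0.024). Pfkp differed by 0.37, Pgam1 by 0.36, Gapdh by 0.34, Gpi1 by 0.34 and Eno1 by 0.28. All of these are values of the brightest probe of a gene. The dimmer probes of Pfkp, Tpi1 and P4ha1 overlapped between the doses, with differences of 0.10, 0.17 and 0.13. So did some of the dimmer Gapdh probes, while the other probes of Gpi1 and Slc16a3 did not. The dose order of the enzymes did not turn with median centring, though Aldoc kept its sign in only 19 of 21 alternatives (lowest -0.06). After median centring 15 of 15 enzymes were again higher at 10PTC, and the arrays did not overlap for 16 of the 32 genes and 11 of the 15 enzymes, against 12.7% of all genes. Median centring leaves any trend of the ratio with brightness in place. Since 99.1% of all genes were dimmer than the enzymes' median, that share is not one of equally bright genes.

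Array by array, the median of the 15 enzymes was -0.31, -0.02 and -0.28 on the PTC arrays and 0.19, 0.03 and 0.03 on the 10PTC arrays, so that PTC replicate 2 was nearest to the 10PTC arrays and 10PTC replicate 1 was the highest. Within slide 2, the single PTC array lay below all 3 10PTC arrays for 14 of the 15 enzymes (93.3%) and 23 of the 32 genes (71.9%), against 31.0% of all genes. In that slide the median difference between doses over the 32 genes was 0.21, with 1 PTC pool and no gene called. Of the 9 HIF targets 5 were higher at 10PTC than at PTC, with differences from -0.58 for Egln3 to 0.24 for P4ha1. The 6 genes with a lower mean at 10PTC were Egln3, Car9, Ankrd37, Hif1a, Ldhb and Adm, none past the threshold and all with intervals that span 0.

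**Figure D2:**
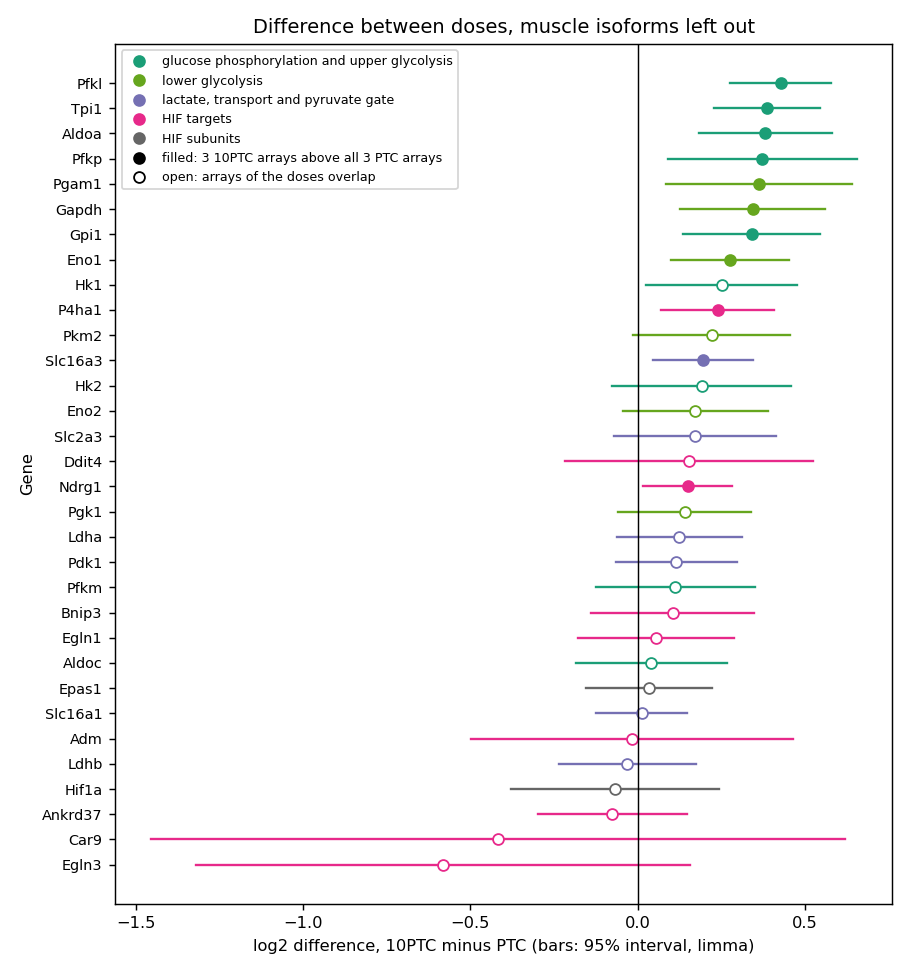
Difference in log2 ratio between the doses (horizontal axis, 10PTC minus PTC, with 95% intervals from limma) for the 32 genes other than the muscle isoforms (vertical axis, by size), coloured by role. Filled points mark the 11 genes whose 3 10PTC arrays lie above all 3 PTC arrays. Pfkl at 0.43 and Tpi1 at 0.39 are at the top, all 15 enzymes are above 0, and no gene passed the test over all genes.

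**Figure D3:**
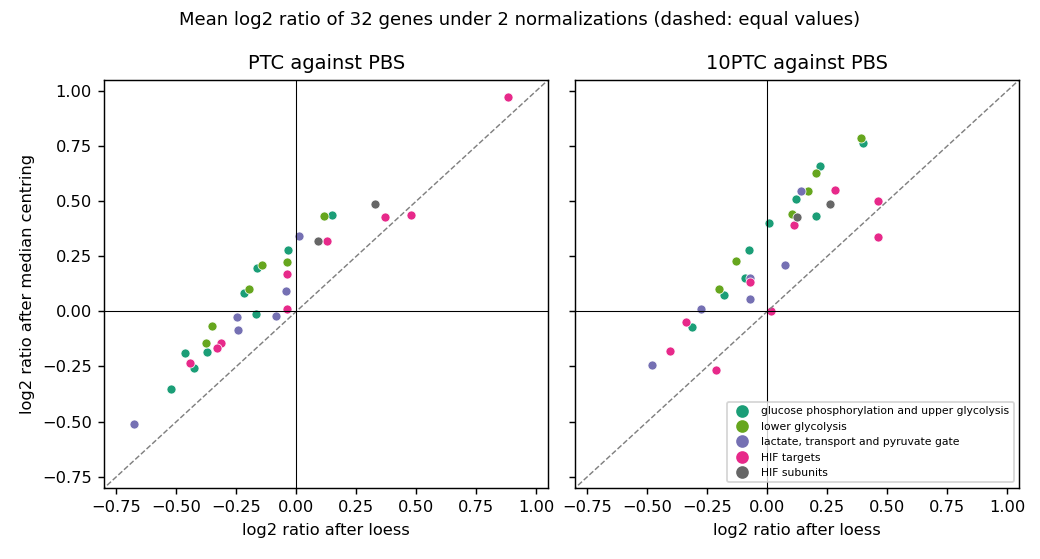
Mean log2 ratio of the 32 genes after loess (horizontal axis) and after median centring (vertical axis), for PTC (left panel) and 10PTC (right panel) against PBS, coloured by role, with a dashed line of equal values. Nearly all points lie above the line, at 10PTC further than at PTC. Enzymes at or below 0 after loess in many cases lie above 0 after median centring, while Slc16a3 is below 0 in all cases.

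The muscle isoforms showed the largest falls of the 34 genes at both doses. Eno3, the enolase of striated muscle, lay at -1.22, -1.14 and -1.23 on the PTC arrays and at -1.22, -0.97 and -1.12 on the 10PTC arrays. It was 56.3% lower than PBS at PTC (-1.20 ± 0.05, SD, n = 3; limma adjusted p = 0.000116) and 53.5% lower at 10PTC (-1.11 ± 0.13, adjusted p = 0.000241). Pgam2, the phosphoglycerate mutase of muscle, lay at -1.41, -1.90 and -1.12 on the PTC arrays and at -1.30, -1.54 and -0.87 on the 10PTC arrays. It fell at PTC (-1.48 ± 0.39, SD, n = 3; limma adjusted p = 0.00143) and at 10PTC (-1.24 ± 0.34, adjusted p = 0.00338). Both genes passed in all alternatives at both doses. Their probes lie on chromosome 11, that of Eno3 at 70475953 to 70476012 (mm9).

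The same arrays held 18 skeletal muscle markers, of which 17 fell at each dose, with medians of -2.91 at PTC and -2.32 at 10PTC. The list's median was -2.55, -2.52 and -3.34 on the PTC arrays and -2.20, -2.09 and -2.32 on the 10PTC arrays. Acta1, skeletal actin, was -2.36 ± 0.18 at PTC and -2.08 ± 0.18 at 10PTC (limma adjusted p = 4.17e-05 and 0.000122), and Ckm, muscle creatine kinase, was -2.14 ± 0.15 and -1.80 ± 0.11. Pfkm and Slc16a3 are also made in muscle, and both fell at both doses, Slc16a3 to -0.68 and -0.48 and Pfkm to -0.43 and -0.31. Aldoa, which muscle makes in abundance, and Pgam1 were called lower at neither dose. The part of muscle tissue in the PBS or nanoparticle pools in the values of these genes was not tested.

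**Figure D4:**
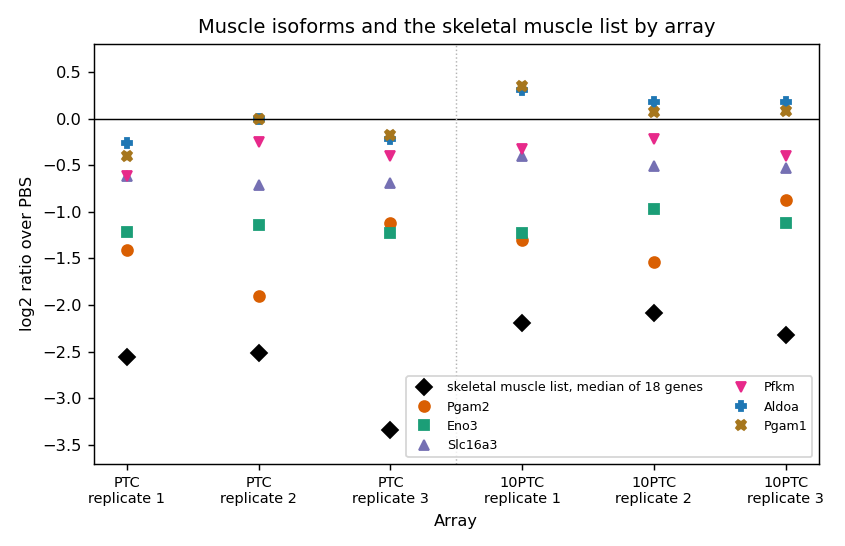
Log2 ratio over PBS (vertical axis) on each of the 6 arrays (horizontal axis) for the median of 18 skeletal muscle genes, the muscle isoforms Pgam2 and Eno3, and Slc16a3, Pfkm, Aldoa and Pgam1. The muscle list lies between -3.34 and -2.09, the muscle isoforms between -1.90 and -0.87, and Aldoa and Pgam1 between -0.40 and 0.35.

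Of 24 other glycolysis genes, 7 rose and 5 fell at PTC and 4 rose and 5 fell at 10PTC, with medians of 0.01 and -0.07. These are 29.2% and 20.8% of the list at PTC and 16.7% and 20.8% at 10PTC, beside 16.8%, 16.3%, 14.4% and 13.3% of all genes. The largest rise, in a gene singled out after its values were seen, was in the hexokinase gene Hkdc1 (0.88 ± 0.75 and 1.06 ± 0.11, SD, n = 3; limma adjusted p = 0.0250 and 0.0164). The largest fall was in Slc2a4, the insulin-responsive glucose transporter GLUT4 of muscle and fat (-1.46 ± 0.15, SD, n = 3, limma adjusted p = 0.000124 at PTC; -1.49 ± 0.12, adjusted p = 0.000165 at 10PTC). Slc2a1, the glucose transporter GLUT1 of the blood-retina barrier and photoreceptors, passed at neither dose (0.03 ± 0.13, adjusted p = 0.781, and 0.08 ± 0.17, adjusted p = 0.471). Pfkfb3, which makes the activator of phosphofructokinase, fell at both doses (-0.20 and -0.27). Bpgm, which makes bisphosphoglycerate, rose at both (0.25 and 0.29). Bsg, basigin, the chaperone of the lactate transporters, also rose at both (0.21 and 0.30), and Ldhd, which oxidises D-lactate, fell at PTC to -0.30.

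Of 13 genes of pyruvate entry to the mitochondrion, 3 rose and 6 fell at PTC and 3 rose and 3 fell at 10PTC. Of the list 23.1% rose at each dose, and 46.2% fell at PTC and 23.1% at 10PTC, beside the same shares of all genes as above. Pcx, pyruvate carboxylase, fell at both doses (-0.56, limma adjusted p = 0.00215, and -0.50, adjusted p = 0.00386). Pdk4, a pyruvate dehydrogenase kinase of fasting muscle and other tissues, also fell at both (-0.48 and -0.45), while Pdk3, another of these kinases, rose at both (0.23 and 0.43). Pdp2, the phosphatase that reopens pyruvate dehydrogenase, fell at PTC (-0.40). Mpc1, a subunit of the mitochondrial pyruvate carrier, rose at PTC (0.20) and was 0.02 at 10PTC. Its partner Mpc2 fell at both doses (-0.19 and -0.15).

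Of 40 other hypoxia genes 37 were measured, of which 5 rose and 10 fell at PTC and 7 rose and 7 fell at 10PTC, with medians of 0.00 and -0.05. These are 13.5% and 27.0% of the list at PTC and 18.9% each at 10PTC, beside 16.8%, 16.3%, 14.4% and 13.3% of all genes. Vegfa, the angiogenic factor and HIF target, was 0.11 ± 0.13 at PTC (limma adjusted p = 0.229) and rose by 0.21 ± 0.11 at 10PTC (adjusted p = 0.0422). Ak4, a mitochondrial adenylate kinase, fell at both doses (-0.65, adjusted p = 0.000996, and -0.51, adjusted p = 0.00290), and so did Gys1, the glycogen synthase of muscle and other tissues (-0.48 and -0.39). Insig2 (0.37 and 0.38) and Arnt2 (0.19 and 0.30) rose at both doses.

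Other cell types of the sample moved on the same arrays. All 12 microglia and macrophage markers rose at each dose (medians 1.36 and 1.10), 8 of 10 ganglion cell markers fell at PTC and 7 at 10PTC (medians -0.48 and -0.39), and 7 of 8 fat tissue markers fell at each dose (medians -0.87 and -0.89). Of 4 red blood cell markers measured, 4 fell at PTC and 3 at 10PTC (medians -1.27 and -1.19), and of 10 Müller glia markers 5 rose and 2 fell at each dose. Of the 12 rod markers, all of them above background throughout, 4 rose at each dose and 1 fell at PTC. They had medians of 0.11 at PTC and 0.15 at 10PTC and, array by array, -0.20, 0.34 and 0.15 at PTC and 0.22, 0.16 and 0.16 at 10PTC. PTC replicate 1 was the lowest array for the enzymes and for the rod, cone (-0.22), ganglion cell (-0.77) and bipolar and amacrine (-0.44) lists, and the highest for microglia (1.89). The part of these cell types in the values of the glycolysis and hypoxia genes was not tested.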

How the data were processed

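Retinal RNA was read on 6 Agilent mouse arrays of 2 colours, PBS RNA in Cy3 and nanoparticle RNA in Cy5. The deposited scanner files hold intensity values per spot (mean signal, local background and processed signals) and log10 ratios. Agilent Feature Extraction 10.7.3.1 made them, per the file headers, while the submitters' processing notes name 9.3.2.1. The authors also deposited a table of log2 ratio values, whose columns followed the scanner's log10 ratios with r from 0.983 to 1 and a slope of 3.32, which gives their direction, Cy5 over Cy3. Column medians from -0.075 to 0.039 leave the centring unknown. Per the labels, RNA was extracted with Trizol from pools of 4 retinas. How many pools the control RNA came from is not given in the sources used.

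Mean signals were corrected with normexp (offset 50) and normalized by loess within each array in limma 3.58.1 (R 4.3.3, version 1.17.8 of data.table). The 1377 control spots had weight 0, and 185 to 274 outlier spots per array were left out. Spots were averaged per probe, and 6918 of 39429 probes were left out because neither channel was well above background on 3 or more arrays. The brightest probe stood for a gene. No spot was saturated, and 71% to 85.5% of spots per array were above background, with median signals of 153 to 221 (Cy3) and 187 to 347 (Cy5) over backgrounds of 26 to 29 and 47 to 48. The number of arrays limits the precision.

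A limma model had a coefficient for each dose (4 residual and 3.4 prior degrees of freedom). Each was tested against 0 and the doses against each other, with Benjamini-Hochberg adjustment over 26153 genes and a threshold of 0.05. The pools are the replicates, and p-values rest on the spread of the ratios between arrays, with an estimate that both doses share. Each ratio also carries PBS RNA, whose number of pools is not given, so the spread is not that of the nanoparticle pools alone. The genes described, the lists and the tests were chosen with earlier results of these data known. Outside the 34 genes, at most 4 called genes of smallest p per list and comparison are named, with Slc2a1 and Vegfa in any case, and at most 3 per cell type list. A gene that meets this rule is not reported here. Probes were named by the files and by RefSeq's gene list (26055 by accession, 3195 by symbol, 930 by synonym, 9249 by the file's name alone). The array design gives probe coordinates (mm9); exon or UTR annotation was not analysed here.

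The limma fit alone was tested on simulated ratios with normal noise and known changes. Background correction, normalization, the filter and the choice of probe were not simulated. The noise was independent between genes and few genes were changed, while in the data 33.1% of all genes passed at PTC and 27.7% at 10PTC. The rates below hold for that simulated setting. Of 1.25-fold changes 60% were recovered at PTC, 52% at 10PTC and 8% between the doses. Of 1.5-fold changes it was 92%, 90% and 76%. Alternatives covered the background correction, the normalization, the filter, outlier spots, probes per gene, the authors' table, array weights, moderation, replicate number and slide as blocks, each slide alone, and each array left out.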

Additional observations from a re-analysis of the deposited data

Results flagged for a closer look

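For 4 of the 34 genes all 3 PTC arrays lay below 0 and all 3 10PTC arrays above 0, a pattern that 1.19% of all genes showed. On PTC replicate 2 the values were small, at -0.057 for Gpi1, -0.004 for Aldoa, -0.024 for Gapdh and -0.008 for Pgam1. Of the 7 Gapdh probes only the brightest showed the pattern, while all 3 Gpi1 probes did. The difference between the doses was 0.34 for Gpi1, 0.38 for Aldoa, 0.34 for Gapdh and 0.36 for Pgam1 on the log2 scale. In limma none of these differences passed over all genes (adjusted p = 0.566, 0.566, 0.566 and 0.573). With array quality weights Gpi1 (0.36) and Aldoa (0.41) passed. After median centring the means at PTC were above 0 as well, at 0.08 for Gpi1, 0.20 for Aldoa, 0.21 for Gapdh and 0.10 for Pgam1, and the doses differed by 0.42 for Gapdh and 0.45 for Pgam1. The opposite signs were thus seen after loess and not after median centring, and the order of the doses after both. Within slide 2, which holds 1 PTC array, that array lay below all 3 10PTC arrays for each of the 4 genes.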

How the results depend on the processing

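Of 2244 values of single genes under 23 alternatives, 1980 kept their direction and their side of the threshold, 104 lost a call, 82 gained one, 9 turned with a call involved, and 69 turned sign with no call under either setting. All 9 turned after median centring: at PTC Gpi1 (0.082), Aldoa (0.20), Aldoc (0.28), Pgk1 (0.22) and Ndrg1 (0.17), and at 10PTC Pfkl (0.15), Tpi1 (0.28), Pkm2 (0.23) and Ldhb (0.012). The median of the 32 genes turned to 0.086 at PTC after median centring and was 0.31 at 10PTC. It turned to -0.027 at 10PTC in the scanner software's processed signals and to -0.011 in the authors' deposited table. The cause was not tested. For 10PTC, 10 of the 34 and 7235 of all genes were called, against 21 and 14661 after median centring, 21 and 14043 with array weights, 16 of the 34 with each dose fitted alone and 16 within slide 2, 4 and 1008 with the slide as a block (Eno1, Slc16a3, Eno3 and Pgam2), 4424 of all genes in the processed signals and 4584 in the authors' deposited table. For PTC, 17 of the 34 and 8655 of all genes were called, against 3 and 289 within slide 1, 7 and 1709 within slide 2, 4608 of all genes with the dose fitted alone and 14701 with array weights. Between the doses, 5 of the 34 and 361 of all genes passed with array weights and 2 of all genes with trended and robust moderation. With 1 array left out, 11 to 19 of the 34 and 5000 to 7860 of all genes passed at PTC, 5 to 15 and 1350 to 9119 at 10PTC, and 0 to 1 of all genes between the doses. With the replicate number as a block, 15 of the 34 and 6445 of all genes were called at PTC, 10 and 4808 at 10PTC, and 0 between the doses. Deviations of arrays with the same number correlated at -0.27, 0.15 and 0.20, so the numbers were not taken as a pairing.

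With 3 pools per dose, the 95% interval of a difference between the doses was from 0.267 (Ndrg1) to 2.08 (Car9) log2 units wide, with a median of 0.441 over the 34 genes. Dye and treatment, and for PTC replicates 1 and 2 slide and dose, cannot be told apart.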
